A study of Mus musculus with 16 samples.

Results

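The red cell membrane and skeleton genes described here are Slc4a1, Ank1, Epb42, Sptb, Add2, Epb41, Rhag and Rhd. These 8 genes were chosen by name for the structure they build, with earlier results of the same arrays known, from 37208 genes or unnamed targets on the array. All 8 were measured, and all 8 were among the 37154 whose log2 intensity came to 6 or more on some array, a minimum that left out very few genes. Because the genes were selected on the values of these arrays, their levels and differences are given as a description without a test. RNA came from mouse ES cells that carry either an intact Sp1 locus (Sp1+/+, wild type) or a mutated one on both alleles (Sp1-/-, knock-out), which yields a truncated Sp1 protein without its DNA-binding domain, and the record gives C57BL/6 as the strain of every sample although the wild-type titles name E14, a conflict that the sources used here do not settle. Cells of both genotypes were differentiated in culture and sorted into Flk1+ cells, into HE1 and HE2, an earlier and a later stage of hemogenic endothelium (both KIT+ and Tie2+, with CD41 absent in HE1 and present in HE2), and into progenitors, which are KIT+ and CD41+ but Tie2-. With 2 one-color arrays for a population of either genotype there were 8 groups and 16 arrays, and this number limits the precision. The record and the main text of the study speak of biological replicates, whereas a legend of the study mentions that technical replicates were averaged, so an SD or a p-value covers only the spread between these samples. The labels name a single knock-out line, so effects of the mutation and of the line cannot be told apart.

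The red cell membrane is held by a flexible network of spectrin that lies beneath the lipid bilayer. Band 3, the anion exchanger encoded by Slc4a1, spans the bilayer and is tied to spectrin through ankyrin (Ank1) and protein 4.2 (Epb42). A second anchor, the junctional complex, is built from the ends of spectrin (Sptb encodes its beta chain), actin, adducin (Add2 encodes its beta subunit) and protein 4.1 (Epb41). The Rh-associated glycoprotein (Rhag) and the Rh blood group protein (Rhd) sit in the membrane together with band 3. Loss of several of these proteins causes hereditary spherocytosis or elliptocytosis, in which red cells lose their shape, and most of the genes are switched on during erythroid maturation, where the factors Gata1 and Klf1 act.

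Promoter windows from 250 bases before to 50 bases after the transcription start were taken from RefSeq for GRCm38.p6. They were found for 6 of the 8 genes (8 windows, of which 3 belong to Epb41), and no window was found for Slc4a1 or Ank1. Both strands were searched for 3 motifs. AGATAA is bound by Gata factors. The letters CCNCNCCC hold the binding site of Klf factors. GGGCGG, the GC box, is bound by Sp factors. The last of these can overlap a Klf-type match. Of 32851 promoters of this length, 11.2% held AGATAA, 49.5% held CCNCNCCC and 35.7% held GGGCGG. Among the members, AGATAA was present in the windows of Epb42 and Rhd, CCNCNCCC in those of Add2, Sptb, Epb41 and Rhd, and GGGCGG in those of Add2, Sptb and Epb41. The Rhag window held none of these letters. The windows of Add2, Sptb, Epb42 and Rhd are shown, 5′ to 3′ along the gene, because they carry different sets of these motifs, and capitals mark every match:
Add2, chr6:86028431-86028730, plus strand: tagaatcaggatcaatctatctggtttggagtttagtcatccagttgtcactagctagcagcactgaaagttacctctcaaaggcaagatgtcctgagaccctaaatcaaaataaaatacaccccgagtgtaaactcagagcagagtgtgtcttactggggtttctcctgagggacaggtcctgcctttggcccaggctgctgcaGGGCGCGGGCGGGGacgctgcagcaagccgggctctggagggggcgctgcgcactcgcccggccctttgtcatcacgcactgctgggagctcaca
Sptb, chr12:76710498-76710797, minus strand: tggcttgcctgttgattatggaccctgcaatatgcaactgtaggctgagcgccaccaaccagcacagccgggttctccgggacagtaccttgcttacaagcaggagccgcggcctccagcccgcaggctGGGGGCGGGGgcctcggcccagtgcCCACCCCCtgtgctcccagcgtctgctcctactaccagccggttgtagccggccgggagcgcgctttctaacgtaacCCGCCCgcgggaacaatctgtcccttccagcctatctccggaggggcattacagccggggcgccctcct
Epb42, chr2:121036828-121037127, minus strand: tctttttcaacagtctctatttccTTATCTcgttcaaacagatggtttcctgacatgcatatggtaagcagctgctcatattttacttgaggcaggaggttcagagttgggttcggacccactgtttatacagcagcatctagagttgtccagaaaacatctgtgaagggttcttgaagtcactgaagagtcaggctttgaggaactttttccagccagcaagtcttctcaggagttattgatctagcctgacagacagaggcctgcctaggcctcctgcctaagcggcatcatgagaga
Rhd, chr4:134864286-134864585, plus strand: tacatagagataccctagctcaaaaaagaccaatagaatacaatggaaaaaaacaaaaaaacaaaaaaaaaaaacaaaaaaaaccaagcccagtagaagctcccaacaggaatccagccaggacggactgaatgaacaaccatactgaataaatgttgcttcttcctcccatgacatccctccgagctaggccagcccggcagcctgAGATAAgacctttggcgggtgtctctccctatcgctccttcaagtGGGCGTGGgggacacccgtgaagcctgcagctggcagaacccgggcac
The AGATAA match lay at position -226 from the start in the Epb42 window and at -43 in the Rhd window. A match is a description of the letters and was not tied to binding here.

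Several properties of the arrays touch the values below. Slide 1 carried the wild-type arrays and slide 2 those of the mutant, so effects of slide and of genotype cannot be told apart, whereas changes between populations lie within a slide. The share of spots well above background ran from 67.0% to 77.1%, and 0 were saturated. The Sp1 probe fell by 2.28 to 3.28 on the log2 scale in the Sp1-/- cells of the 4 populations (limma, adjusted p between 2.21e-06 and 5.98e-05), and what remained of it on the Sp1-/- arrays was still well above background. Whether this probe lies in the deleted part was not determined. Values are the authors' log2 intensities, in which an offset compresses differences of dim probes, so that folds of dim genes are understated. The RNA is that of a sorted population, in which more erythroid cells and more RNA per erythroid cell cannot be told apart.

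In Sp1-/- progenitors, 7 of the 8 genes were at least 2-fold higher than in Sp1+/+ progenitors, with both arrays of the one above both arrays of the other, and Epb41 was the exception. Of all genes, 1.64% did the same. In HE2 this held for 2 of 8 genes, Slc4a1 and Add2, where 0.926% of all genes did so. That count was 1 without Sp1+/+ HE2 replicate 2, and 6 with the scanner's own processed signal, which has no offset. In Flk1+ cells and in HE1 it held for 0 of 8, where the shares of all genes were 0.912% and 1.16%. Because these contrasts led to the choice of the genes, nothing is read from the comparison with the background. The 8 genes had a median log2 difference of 0.06 in Flk1+ cells. It was -0.06 for HE1, 0.49 for HE2 and 2.32 for progenitors, whereas the median over all genes lay between 0.01 and 0.02.

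**Figure D1:**
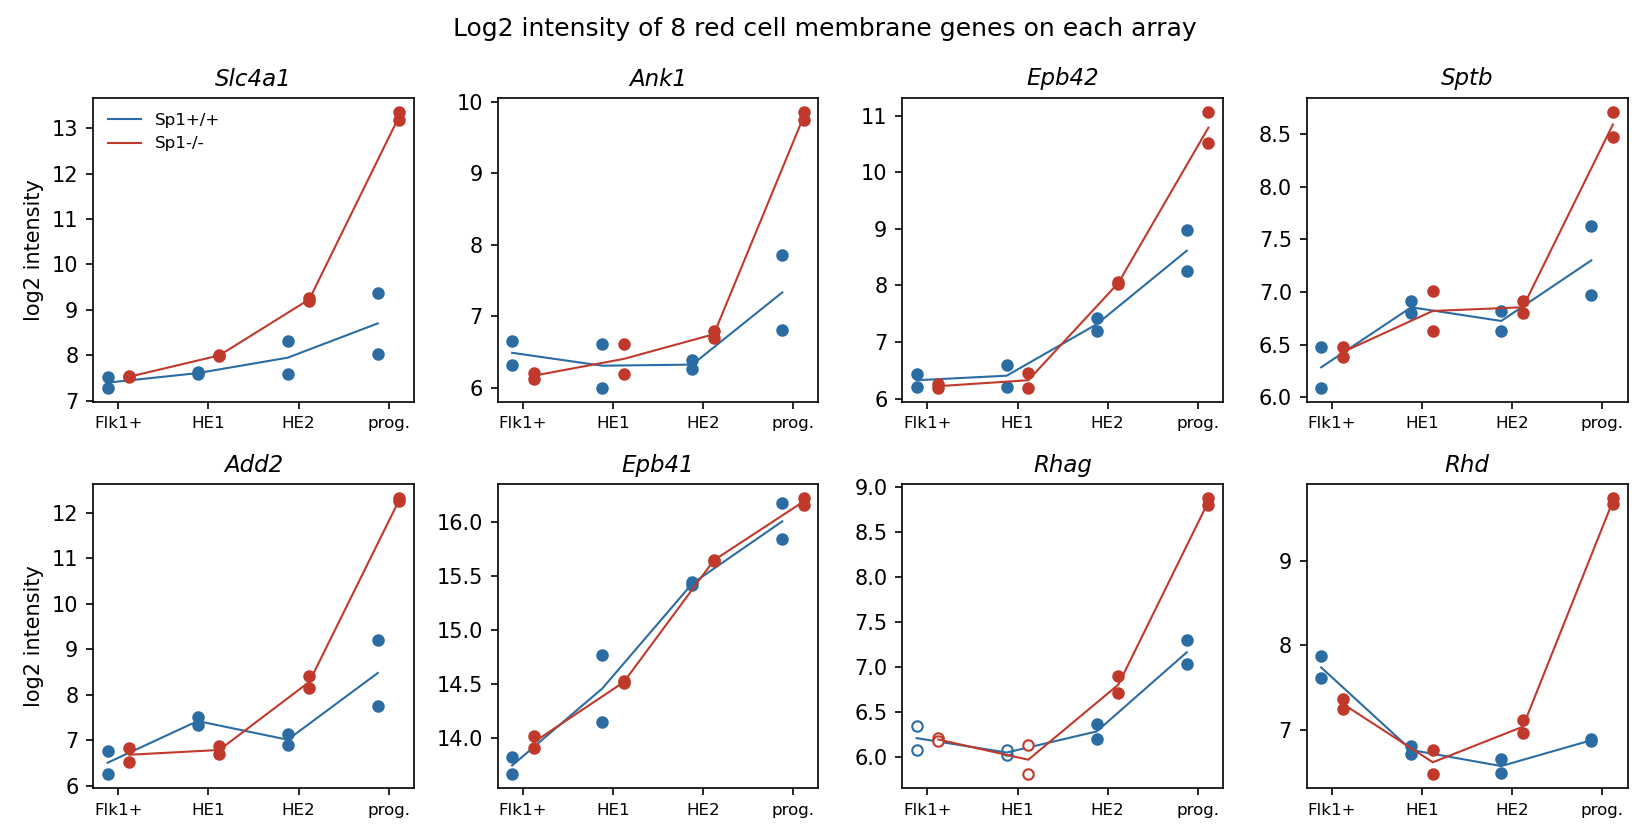
Log2 intensity (vertical axis, a separate scale for each gene) of the 8 genes across the populations (prog., progenitors), with 1 point per array, lines through the group means, Sp1+/+ in blue and Sp1-/- in red. Open points mark groups in which no array was well above background. The red points stand above the blue ones in progenitors for every gene but Epb41, whose values run from 13.67 to 16.22 in both genotypes together.

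Slc4a1, the band 3 anion exchanger (chr11:102348820-102365281, GRCm38.p6, as for all positions here), had the largest difference of the 8 genes in progenitors. Its Sp1+/+ arrays read 7.51 and 7.28 in Flk1+ cells, 7.58 and 7.63 at the HE1 stage, 8.31 and 7.58 at the HE2 stage, and 8.03 and 9.37 in progenitors. In Sp1-/- cells they read 7.51 and 7.54, 8.00 and 7.99, 9.27 and 9.19, and 13.36 and 13.18 in the same order. The genotypes overlapped in Flk1+ cells and were apart from HE1 onward, with both progenitor arrays of the mutant far above every other array. The progenitor means were 8.70 ± 0.95 (SD, n = 2) and 13.27 ± 0.13 (n = 2), a log2 difference of 4.57 (standard error 0.34), or 23.8-fold. Standard errors of all genes come from the fit over all arrays, which shares a single spread per gene among the groups. They therefore do not show the wider spread of Slc4a1 in Sp1+/+ progenitors. Without Sp1+/+ progenitor replicate 1 the difference was 3.90, and without replicate 2 it was 5.24. In HE2 the difference was 1.29 (standard error 0.34), and in HE1 it was 0.39. From HE2 to progenitors the level was higher by 4.04 in Sp1-/- cells and by 0.76 in Sp1+/+ cells, where the arrays of the 2 populations overlapped.

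The anchors of band 3 followed a similar order. Ank1 (chr8:22974836-23150501) encodes ankyrin, which links band 3 to spectrin. Its arrays in Sp1+/+ cells read 6.32 and 6.66 in Flk1+ cells, 6.62 and 6.00 at the HE1 stage, 6.39 and 6.26 at the HE2 stage, and 6.81 and 7.86 in progenitors. In Sp1-/- cells they were 6.13 and 6.21, 6.19 and 6.62, 6.70 and 6.80, and 9.86 and 9.74. Before the progenitor stage all of these values lie close to background, and 1 array in each of Sp1+/+ HE1, Sp1+/+ HE2 and Sp1-/- Flk1+ cells was not well above it. In progenitors the log2 difference was 2.46 (standard error 0.30), or 5.52-fold, and the arrays did not overlap. With the scanner's processed signal it was 3.34 in progenitors, 1.72 in HE2 and 1.47 in HE1. In Flk1+ cells both Sp1-/- arrays were below both Sp1+/+ arrays, by 0.32 (standard error 0.30), and in HE2 both were above, by 0.42 (standard error 0.30).

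Epb42 (chr2:121017891-121036877) encodes protein 4.2, which stabilizes the contact of band 3 with ankyrin. Its Sp1+/+ arrays read 6.21 and 6.44 in Flk1+ cells, 6.60 and 6.21 at the HE1 stage, 7.43 and 7.20 at the HE2 stage, and 8.25 and 8.98 in progenitors. The Sp1-/- arrays read 6.19 and 6.25, 6.46 and 6.19, 8.03 and 8.06, and 10.51 and 11.07. In both genotypes the level was higher at each step from HE1, and the genotypes were apart in HE2 and in progenitors. The difference was 0.73 (standard error 0.24) in HE2, or 1.32 with the scanner's processed signal, and 2.17 (standard error 0.24), or 4.52-fold, in progenitors. In Flk1+ cells and HE1, 1 of 2 arrays of each genotype was well above background and the arrays overlapped.

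Sptb (chr12:76580488-76710547), the beta chain of erythroid spectrin, had the smallest difference in progenitors after Epb41. It read 6.09 and 6.48 in Flk1+ cells, 6.80 and 6.91 at the HE1 stage, 6.82 and 6.63 at the HE2 stage, and 6.97 and 7.63 in progenitors of Sp1+/+ cells. The Sp1-/- arrays read 6.38 and 6.48, 7.01 and 6.63, 6.80 and 6.91, and 8.71 and 8.47. The genotypes overlapped in every population before the progenitors. There the difference was 1.29 (standard error 0.21), or 2.45-fold, and without Sp1+/+ progenitor replicate 1 it was 0.96, below the 2-fold line. With the scanner's processed signal it was 1.94 in progenitors and 0.83 in Flk1+ cells.

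Add2 (chr6:86028681-86124409) encodes the beta subunit of adducin, which caps actin at the junctional complex. The Sp1+/+ arrays read 6.26 and 6.76 in Flk1+ cells, 7.33 and 7.52 at the HE1 stage, 6.90 and 7.13 at the HE2 stage, and 7.75 and 9.21 in progenitors. The Sp1-/- arrays read 6.53 and 6.84, 6.70 and 6.88, 8.42 and 8.15, and 12.25 and 12.32. In HE1 both mutant arrays lay below both wild-type arrays, by 0.64 on the log2 scale (a difference of -0.64, standard error 0.36), whereas in HE2 both lay above, by 1.27 (standard error 0.36). In progenitors the difference was 3.81 (standard error 0.36), or 14.0-fold, and the arrays did not overlap. It was 3.08 without Sp1+/+ progenitor replicate 1 and 4.54 without replicate 2. With the scanner's processed signal the difference was 2.07 in HE2, 0.91 in Flk1+ cells and -1.004 in HE1. An offset of 16 gave -0.85 in HE1.

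Epb41 (chr4:131923413-132075346) encodes protein 4.1, which joins spectrin to actin and is also made outside the red cell lineage. Its differences between the genotypes were unlike those of the other members. The Sp1+/+ arrays read 13.67 and 13.83 in Flk1+ cells, 14.77 and 14.15 at the HE1 stage, 15.42 and 15.44 at the HE2 stage, and 15.84 and 16.17 in progenitors. The Sp1-/- arrays read 13.91 and 14.02, 14.53 and 14.51, 15.64 and 15.65, and 16.16 and 16.22. The level was higher at each step in both genotypes, by 0.71, 0.97 and 0.57 in Sp1+/+ cells and by 0.56, 1.13 and 0.55 in Sp1-/- cells (standard error 0.17). The genotypes differed by 0.06 to 0.21 in the 4 populations, and in progenitors the arrays overlapped (0.19, standard error 0.17). The other Epb41 probes were dimmer. One of them gave a progenitor difference of 0.72 and the other -0.03, so the probes of this gene disagree.

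The genes of the Rh proteins come last. Rhag (chr17:40811099-40844094), the Rh-associated glycoprotein, was not well above background on any array of Flk1+ cells or HE1 in either genotype, with values between 5.81 and 6.34, so no fold is given there. In HE2 its arrays read 6.37 and 6.20 in Sp1+/+ cells and 6.71 and 6.90 in Sp1-/- cells, and in progenitors they read 7.03 and 7.30 against 8.88 and 8.80. From HE1 to HE2 the Sp1-/- level was at least 1.64-fold higher, taken against the lowest signal well above background on each array or the gene's own signal, whichever was higher. In progenitors the log2 difference between the genotypes was 1.67 (standard error 0.14), or 3.19-fold. In the scanner's processed signal it was 2.51, and the HE2 difference was 2.40 in place of 0.52.

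Rhd (chr4:134864536-134896172), the Rh blood group protein, followed a course of its own. It was highest in Flk1+ cells among the Sp1+/+ populations, at 7.87 and 7.61, and read 6.81 and 6.72 at the HE1 stage, 6.49 and 6.66 at the HE2 stage, and 6.89 and 6.87 in progenitors. In Sp1-/- cells it read 7.37 and 7.25, 6.76 and 6.48, 7.12 and 6.96, and 9.74 and 9.67. Both Sp1-/- arrays lay below both Sp1+/+ arrays in Flk1+ cells (a difference of -0.43, standard error 0.12) and above them in HE2 (0.47) and progenitors (2.83, standard error 0.12), the last of these 7.09-fold. These were 1.18 in HE2 and 3.92 in progenitors with the scanner's processed signal.

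**Figure D2:**
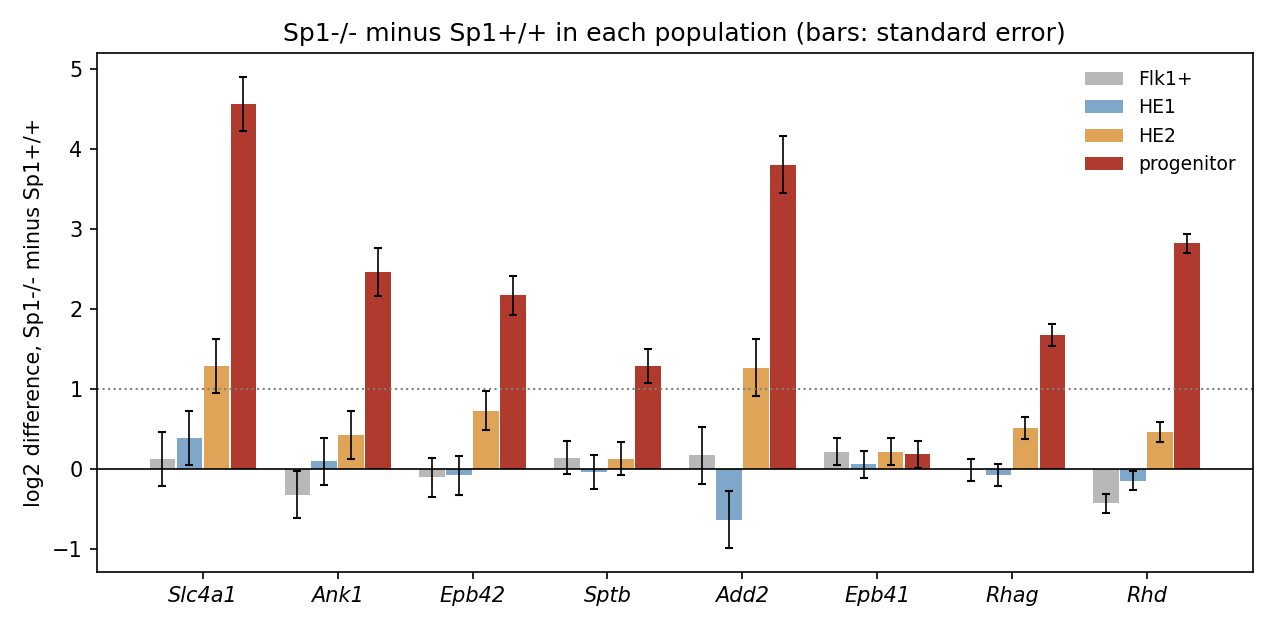
Difference in log2 intensity, Sp1-/- minus Sp1+/+ (vertical axis), of the 8 genes in the 4 populations, with bars for the standard error of the fit over all arrays and a dotted line at 2-fold. The progenitor bar is the highest for 7 genes and runs from 1.29 for Sptb to 4.57 for Slc4a1, while the Epb41 bars stay between 0.06 and 0.21.

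Changes from one population to the next lie within a slide. From HE2 to progenitors, 7 of 8 genes, all but Epb41, were at least 2-fold higher with no overlap of arrays in Sp1-/- cells, as were 2.59% of all genes. In Sp1+/+ cells this held for 3 genes, Add2, Ank1 and Epb42, against 1.12% of all genes. From HE1 to HE2 it held for 4 genes in Sp1-/- cells (Slc4a1, Add2, Epb42 and Epb41) and for 0 in Sp1+/+ cells, where the shares of all genes were 2.13% and 1.12%. From Flk1+ cells to HE1 it held for 0 of 8 in both genotypes, against 4.75% of all genes in Sp1+/+ cells and 4.97% in Sp1-/- cells. The wild-type count from HE2 to progenitors rests on single arrays, being 5 without Sp1+/+ progenitor replicate 1 and 0 without replicate 2. The Sp1-/- effect in progenitors exceeded that in HE2 by 3.29 for Slc4a1 (standard error 0.48), 2.54 for Add2 (0.50), 2.36 for Rhd (0.17) and 2.04 for Ank1 (0.42). For Epb42 the excess was 1.45 (0.34), and for Sptb and Rhag it was 1.16 each (0.30 and 0.19). Epb41 was the exception at -0.03 (0.24). For Rhag, 1 of 2 Sp1+/+ HE2 arrays was well above background. Its difference in the scanner's processed signal was 2.40 in HE2 and 2.51 in progenitors, so little excess was left there. In that signal Epb42 differed by 1.32 and 2.45, and Sptb by 0.66 and 1.94, in the same order.

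The 2 Sp1+/+ progenitor arrays differed in these genes. Replicate 2 was above replicate 1 in 7 of 8 genes, all but Rhd, by a median of 0.69 on the log2 scale and by as much as 1.46 for Add2. Of the 8 genes 5 were higher by at least 0.5 in replicate 2, as were 1.63% of all genes, and the median over all genes was 0. With replicate 1 left out, the Sp1-/- minus Sp1+/+ differences in progenitors ran from 0.02 for Epb41 and 0.96 for Sptb to 3.90 for Slc4a1.

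The erythroid markers and the members were both higher in Sp1-/- HE2 and progenitors, but on the deposited values they did not go together throughout. Of 10 listed erythroid markers, 9 had a probe (the embryonic globins Hbb-bh1, Hbb-y and Hba-x, the adult globin Hba-a1, Alas2, Gata1, Klf1, Epor and Tfrc). Their summed log2 intensity was 13.6 and 14.0 in Flk1+ cells, 16.3 and 12.7 at the HE1 stage, 17.2 and 15.9 at the HE2 stage, and 18.2 and 19.5 in Sp1+/+ progenitors. In Sp1-/- cells it was 13.2 and 13.4, 14.3 and 14.4, 18.1 and 18.0, and 20.5 and 20.4. The higher Sp1+/+ progenitor array was again replicate 2, and Sp1+/+ HE1 replicate 1 was far above replicate 2. The members differed there by a median of -0.02 (replicate 2 minus 1), from -0.62 to 0.19, with 4 of 8 higher in replicate 2. From HE1 onward Hbb-bh1 was the brightest of the 9 markers on every array, so it weighs most in the sums. In progenitors it read 17.75 and 18.70 in Sp1+/+ and 18.89 and 18.91 in Sp1-/- cells, where the highest value on any array was 18.99. From HE1 to HE2 in Sp1+/+ cells the erythroid median was higher by 1.49 (9 of 9 above 0) and the member median by 0.13 (5 of 8). Several members were dim there, and the offset compresses steps of dim genes. In Sp1+/+ HE1, Rhag was well above background on 0 of 2 arrays, and Ank1 and Epb42 on 1 of 2 each. With the scanner's processed signal 3 of 8 members were at least 2-fold higher at this step. All 9 markers were well above background on every array from HE1 onward. In HE2 all 9 were higher in Sp1-/- cells, by a median of 1.56, and limma called 0 of them. In progenitors all 9 were higher in Sp1-/- cells, by a median of 1.90. At least 2-fold higher without overlap were 8 of 9, against 1.64% of all genes. The limma call was passed by 4 (Alas2, Epor, Klf1 and Tfrc), against 1.51% of all genes called higher. Alas2, the erythroid enzyme that starts heme synthesis, rose from a mean of 11.44 to 14.44 (standard error of the difference 0.56, adjusted p = 0.00489). Klf1, the erythroid factor, rose by 1.90 (standard error 0.59, adjusted p = 0.0574). Gata1 was higher by 1.39 (standard error 0.64) and was not called. The part of these markers in the differences of the membrane genes was not tested.

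Markers of other cells moved less evenly. Genes counted here and below as risen or fallen passed the limma call (at least 2-fold, unadjusted p up to 0.01). In progenitors 1.51% of all genes were called higher and 2.61% lower. Of 7 endothelial markers, 2 fell in Sp1-/- progenitors (Cdh5 and Esam), and the list median was -1.04 with 1 of 7 above 0. Tie1 (-1.09, standard error 0.40) and Tek (-1.04, standard error 0.47) were also more than 2-fold lower but were not called. Their mean log2 intensity was 10.90 and 10.15 in Sp1+/+ and 9.34 and 9.61 in Sp1-/- progenitors. The summed intensity, most of it from Kdr, lay between 14.3 and 14.8 on the log2 scale. Of 6 megakaryocyte markers, 3 rose (Gp1bb, Gp9 and Pf4), and the list median was 0.66 with 5 of 6 above 0. Their mean log2 intensity was 11.21 and 11.32 in Sp1+/+ and 12.13 and 11.93 in Sp1-/- progenitors. The summed level, most of it from Itgb3, lay between 15.3 and 15.5. Of 6 myeloid markers 1 rose (Csf1r, list median -0.11, 2 of 6 above 0), at summed levels from 15.3 to 15.7. Of 6 blood progenitor markers 1 rose (Ptprc) and 1 fell (Kit), with a list median of -0.52 and 2 of 6 above 0, at summed levels from 15.8 to 16.5. Of 8 markers of mesoderm and stroma, 2 fell (Acta2 and Col1a1), with a list median of -0.38 and 1 of 8 above 0. The summed level, most of it from Acta2, was 16.9 and 16.3 in Sp1+/+ and 13.1 and 13.0 in Sp1-/- progenitors. Acta2 alone read 16.81 and 16.24 in Sp1+/+ and 12.85 and 12.77 in Sp1-/- progenitors. The part of these markers in the results was not tested.

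**Figure D3:**
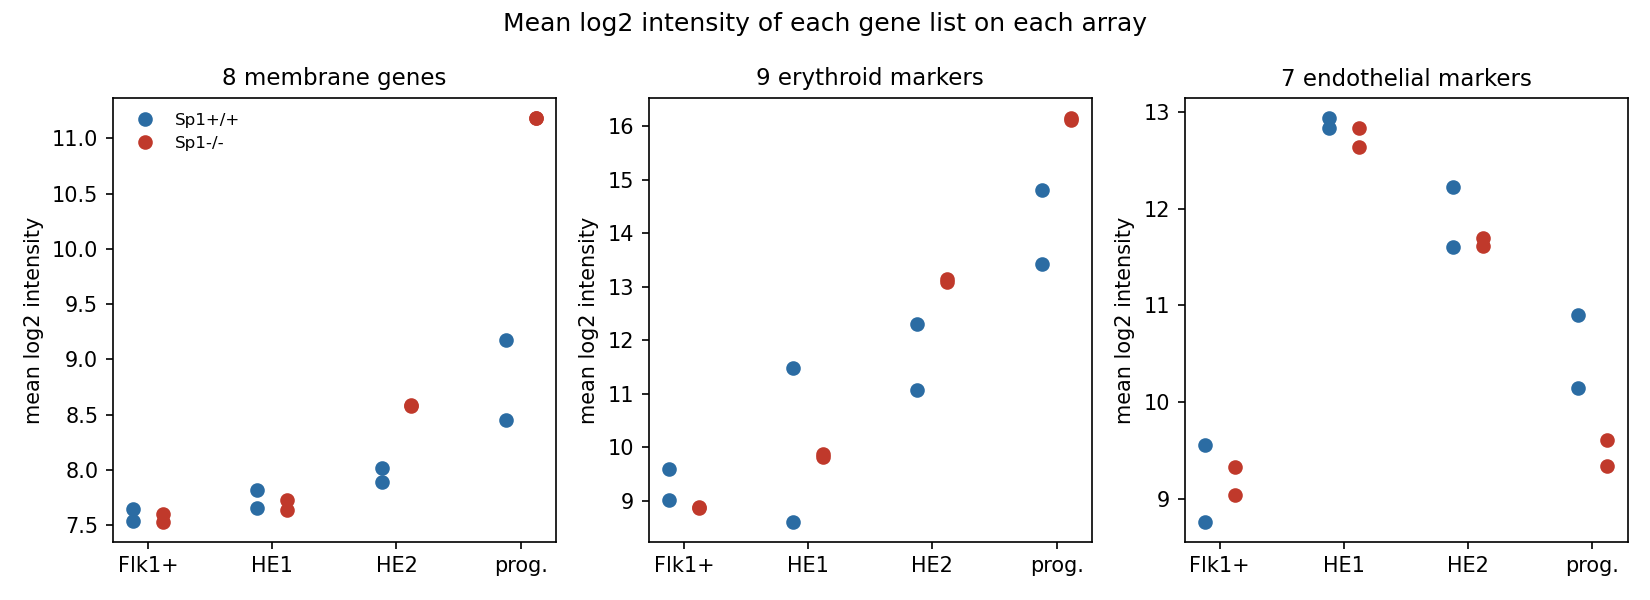
Mean log2 intensity (vertical axis) of the 8 membrane genes, 9 erythroid markers and 7 endothelial markers on each array, with Sp1+/+ in blue and Sp1-/- in red. In Sp1-/- progenitors both arrays have the highest mean of the membrane genes (11.18 each) and of the erythroid markers (16.15 and 16.11).

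Other genes of the red cell membrane were tested as a list of 19 genes outside the members, written with earlier results of these data known, and all 19 had a probe. In progenitors 7 rose and 2 fell in Sp1-/- cells, where 1.51% of all genes were called higher and 2.61% lower. The median difference of the list was 0.40 (13 of 19 above 0), against 0.02 over all genes. Dmtn, which encodes the actin-bundling protein dematin, rose by 2.31 (standard error 0.23, adjusted p = 9.22e-05). Tmod1, which caps the pointed ends of actin, rose by 2.17 (standard error 0.38, adjusted p = 0.00327). The others that rose were the surface antigens Icam4 (2.12) and Kel (1.90), Stom (1.21), which encodes stomatin, the potassium channel Kcnn4 (1.05) and the transporter Abcb6 (1.03). Mpp1, a scaffold protein of the junctional complex, fell by 1.14 (adjusted p = 1.12e-05), and the glucose transporter Slc2a1 fell by 1.30 (adjusted p = 0.0336). Partners that are made in many tissues lay under the 2-fold line and were not called. The difference was 0.40 for both Add1, the alpha subunit of adducin (standard error 0.09), and Gypc, glycophorin C (0.24). Several of these calls depended on the setting. Of 13 alternatives, Kcnn4 was not called in 5, Slc2a1 in 3, Abcb6 in 2, and Kel, Tmod1 and Stom in 1 each. Without Sp1+/+ progenitor replicate 1 the differences were 0.41 for Kcnn4, 1.16 for Kel, 1.52 for Icam4 and 1.57 for Tmod1, and without replicate 2 they were 1.70, 2.64, 2.73 and 2.77. Dmtn differed by 3.24 with the scanner's processed signal.

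The same list gave few calls earlier. In Flk1+ cells 1 gene rose (Stom, not called in 2 of 13 alternatives) and 1 fell (Icam4), against 0.781% and 0.875% of all genes. In HE1 limma called 0 of 19, with 8 at an unadjusted p under 0.05, against 0.974% of all genes called higher and 1.14% called lower. In HE2 limma called 0 genes higher (5 of 19 had an unadjusted p under 0.05 in either direction) and 1 fell (Mpp1, not called without Sp1-/- HE2 replicate 1), against 0.778% and 1.18% of all genes. By the count used for the members, 1 of 19 was at least 2-fold higher there without overlap, against 0.926% of all genes. This was Tmod1, at 1.175 (standard error 0.38), in a list with a median of 0.02 and 11 of 19 above 0. The change of the Sp1-/- effect from HE2 to progenitors was tested for each list gene, and 3 of 19 were called, all with a larger effect in progenitors (Dmtn, Icam4 and Stom), as 1.60% of all genes were called in either direction.

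Paralogs of the members, most of which act outside red cells, formed a list of 20, of which 19 had a probe. In progenitors limma called 0 of them higher (11 of 19 had an unadjusted p under 0.05 in either direction) and 2 fell (Sptbn1, by 1.31, adjusted p = 6.99e-05, and Epb41l3, by 1.09, adjusted p = 0.00144), with a list median of -0.28. The count was 1 without Sp1+/+ progenitor replicate 1 and 1 without Sp1-/- progenitor replicate 1. Sptbn1 encodes a non-erythroid beta spectrin, and Epb41l3 is a relative of protein 4.1. Sptan1, the non-erythroid alpha spectrin, was lower by 0.87 and was not called at the 2-fold line. Other paralogs also lay under the 2-fold line that the call requires, which does not mean that they were equal. They were Slc4a2 (0.47, standard error 0.10), Add3 (0.26, 0.15), Ank2 (-0.39, 0.14), Ank3 (0.27, 0.13) and Rhcg (0.41, 0.11). In Flk1+ cells and in HE1 Epb41l3 rose, by 1.14 and 1.33, and it was the single paralog called there. In HE2, 0 of 19 paralogs were called by limma, with 3 at an unadjusted p under 0.05.

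**Figure D4:**
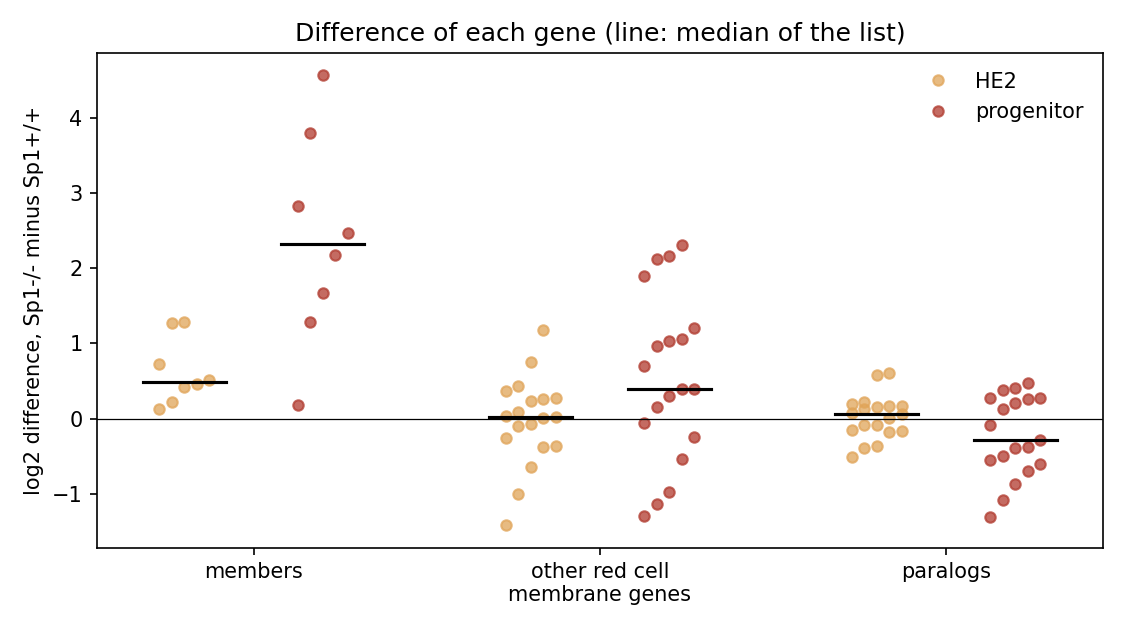
Difference in log2 intensity, Sp1-/- minus Sp1+/+ (vertical axis), in HE2 (orange) and progenitors (red), with 1 point per gene for the 8 members, 19 other red cell membrane genes and 19 paralogs, and a line at each median. In progenitors the medians are 2.32, 0.40 and -0.28.

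Across the 16 arrays the members were alike to different degrees. The correlation of each gene with the mean of the other 7 (after standardizing each gene) was between 0.94 and 0.98 for Slc4a1, Add2, Sptb, Ank1, Epb42 and Rhag, but 0.72 for Epb41 and 0.75 for Rhd. The lowest correlation of a pair was that of Epb41 with Rhd, at 0.29. The arrays share genotype, population and slide, and the 2 Sp1-/- progenitor arrays stand apart for most of these genes, so these values are a description. Among the genes with a symbol outside all lists, the 5 most alike to the mean of the members were 1300017J02Rik, Tlcd4, Ache, Mrap and Trim10, with Pearson r between 0.9886 and 0.9901 over the 16 arrays. List genes were left out of that ranking, and their r ran from -0.837 for Sptan1 to 0.9888 for the megakaryocyte marker Gp1bb. It was 0.959 for Kel, 0.944 for Alas2, 0.927 for the blood progenitor marker Ptprc and 0.912 for the myeloid marker Cd14. Ache, acetylcholinesterase, read 7.47 and 8.47 in Sp1+/+ and 9.95 on both arrays of Sp1-/- progenitors. Trim10, which is expressed in erythroid cells, read 8.17 and 9.38 against 11.78 and 11.85.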

How the data were processed

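One-color Agilent arrays of 16 mouse ES cell samples were used, 2 for each genotype and population, with groups taken from the sample labels. Deposited were the intensity of every spot from the scanner (per the labels Agilent Feature Extraction 10.7.1.1, and 10.7.3.1 in the file headers) and a table of normalized log2 values. In the authors' methods, limma's normexp correction used an offset of 16, followed by quantile normalization. An offset of 50 gave the deposited log2 values to within 0.005, whereas with 16 the difference reached 1.63. The deposited log2 values are the main values. Control spots were left out, outlier spots (95 to 182 per array) set to missing and repeats of 432 probes averaged. Probe targets were named through a RefSeq table of GRCm38.p6 (20875 of 37932 matched). The brightest probe stood for a gene.

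The fit was by limma 3.58.1 in R 4.3.3, with the 8 groups as coefficients, to 37154 genes, and was tested on simulated data. The call asked for at least 2-fold and an unadjusted p up to 0.01, with Benjamini-Hochberg values over all genes beside it. The members and gene lists were chosen with earlier results of these data known. Named genes were the members, called list genes and partners of the members, markers, Sp1, and the 5 genes most alike. Epb41l1 and Hbb-b1 had no matched probe, and some genes of the lists are not reported here. Alternatives to these values were the stated offset of 16, processed scanner signals (75th percentile scaling), no background correction, no minimum, a filter for probes well above background in both replicates, and averaged probes. For the lists they were also the arrays of the comparison alone, a replicate block and an adjusted p of 0.05, and each array was left out in turn.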

Additional observations from a re-analysis of the deposited data

Results flagged for a closer look

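For genes of the lists, the Sp1-/- effect in progenitors differed from that in HE2 by limma's test of the difference, with the call at 2-fold or more and an unadjusted p up to 0.01. The effect was larger in progenitors for Dmtn, by 2.23 (standard error 0.33, adjusted p = 0.0147). For Icam4 it was larger by 1.76 (adjusted p = 0.0935) and for Stom by 1.19 (adjusted p = 0.0551). For Epb41l3 it was lower, at -1.70 (adjusted p = 0.0126).

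Among the members, 3 genes had both Sp1-/- arrays below both Sp1+/+ arrays in one population and above them in another, and this difference was not tested. For Add2 the Sp1-/- minus Sp1+/+ difference was -0.64 at HE1, 1.27 at HE2 and 3.81 in progenitors. For Ank1 it was -0.32 in Flk1+ cells, 0.42 in HE2 and 2.46 in progenitors. For Rhd it was -0.43 in Flk1+ cells, 0.47 in HE2 and 2.83 in progenitors.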

How the results depend on the processing

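In progenitors the count of members at least 2-fold higher in Sp1-/- cells was 6 or 7 under every alternative run, and the sign of no member's difference in HE2 or progenitors changed. In Flk1+ cells and HE1 the sign changed in 7 and 11 of 80 values each, all of differences under 0.5. With the scanner's processed signal, which has no offset, the member counts were 6 in HE2, and from one population to the next 2 (Flk1+ to HE1), 3 (HE1 to HE2) and 5 (HE2 to progenitors) in Sp1+/+ cells and 1 and 7 (first and second step) in Sp1-/- cells. The list counts were then 1 in HE1 for the other membrane genes, and 2, 2 and 5 for the paralogs in Flk1+ cells, HE1 and progenitors. With that signal the median difference of all genes in HE1 was 0.13 over 26259 genes, against 0.01 over 37154 on the deposited values. An offset of 16 and no background correction each gave 1 member for the first and 1 for the second wild-type step. Those settings each gave 2 calls of other membrane genes in HE2. That number of calls was also 2 with the filter on both replicates and with the fit to the arrays of the comparison alone. With the mean over probes the other membrane genes gave 1 in Flk1+ cells and 1 in HE1.

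With 1 array left out, where the lone array is assumed to vary like the other groups, the wild-type steps gave 0 to 1, 0 to 2 and 0 to 5 members, and HE2 gave 1 to 2. The other membrane genes gave 1 to 2 calls for Flk1+ cells (1 without Sp1-/- Flk1+ replicate 1), 0 to 1 for HE1 (1 without Sp1+/+ HE1 replicate 2), 0 to 2 for HE2 (0 without Sp1-/- replicate 1, 2 without Sp1+/+ replicate 1) and 6 to 11 for progenitors. The paralogs gave 1 to 2 in Flk1+ cells and in HE1 and 1 to 3 in progenitors. The replicate block left the 9 calls of the other membrane genes in progenitors at 9 and changed no other count. The deviations of same-numbered replicates correlated between -0.17 and 0.28 in the 4 pairs of genotypes and between -0.15 and 0.50 in the 24 other pairs of groups, the highest for HE1 with HE2 in Sp1+/+ cells. Not every pair was over 0.1, so the numbers were not taken to pair the samples. In the study's methods, HE1, HE2 and progenitors were sorted from cells that had been combined at harvest. Samples of these populations may therefore share a culture, which a rule over all pairs cannot detect. The standard errors of steps between populations treat the samples as independent. Causes were not tested.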
